A study of Mus musculus with 24 samples.

Results

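Grb10 and 8 genes that act with or resemble it in insulin receptor signalling (Grb7, Grb14, Insr, Igf1r, Irs1, Irs2, Irs4 and Sh2b1) were taken by their gene symbols, and each matched 1 row of the 33079 gene rows of the RNA-seq table. Grb10 was chosen for its loss in KO cells. Its KO and WT levels are therefore a description without a test. The other 8 genes were chosen by name, to ask whether its paralogs or partners differ where Grb10 is low. All cells were mouse embryonic stem (ES) cells carrying the Per2::Luciferase knock-in, differentiated through embryoid bodies for 28 days and then stimulated with 100 nM dexamethasone (a synthetic glucocorticoid, used to set cellular clocks to a common phase). WT cells had no further change. KO cells were in addition Rev-erba/Rev-erbb deficient, which means that a targeted exon of each of these clock repressor genes was removed with CRISPR/Cas9, first in Rev-erbβ and then in Rev-erbα, in lines grown from picked colonies. Each genotype had 12 libraries, 1 at every 4 h from 12 to 56 h after dexamethasone. Each library came from the pooled RNA of 3 embryoid bodies, and no time point had a replicate. Genotype and cell line cannot be told apart.

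The insulin receptor and the IGF1 receptor are tyrosine kinases at the cell surface. Once bound by insulin or insulin-like growth factors they phosphorylate docking proteins of the IRS family. These recruit PI3-kinase and so activate AKT and mTOR complexes, in parallel with the RAS and MAP kinase cascade. AKT keeps FOXO transcription factors out of the nucleus. GRB10 is an SH2 domain adaptor of the GRB7 family that binds the activated receptors and restrains their signal. Its gene is imprinted, expressed from the maternal copy in most mouse tissues and from the paternal copy in neurons.

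The Grb10 row lay on the minus strand of chromosome 11 (GRCm38, 11930499 to 12037420) and counted the reads on 5072 bases of exons. The RefSeq promoter table (GRCm38.p6, 250 bases before to 50 after a start) held 9 windows for 7 of the 9 genes, of which 2 belonged to Grb10. The window at the start used by the deposited row is printed to show how rich in CpG it is, with CpG dinucleotides in capitals.

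Grb10, chr11:12037371-12037670, minus strand: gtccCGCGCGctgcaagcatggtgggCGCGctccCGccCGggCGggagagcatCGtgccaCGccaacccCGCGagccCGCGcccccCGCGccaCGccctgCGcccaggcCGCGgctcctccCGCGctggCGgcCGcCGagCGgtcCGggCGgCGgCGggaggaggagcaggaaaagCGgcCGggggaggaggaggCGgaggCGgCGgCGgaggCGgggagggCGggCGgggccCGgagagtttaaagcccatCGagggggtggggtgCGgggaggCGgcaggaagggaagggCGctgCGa

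This window held 45 CpG, more than 98.1% of the 32851 promoter windows, whereas the window at the second start, 9449 bases further into the gene (chr11:12027922-12028221), held 9. The hexamer AGGTCA, the core of the site that REV-ERB and ROR receptors bind, was searched on both strands. It was in neither Grb10 window and in 1 of the 9 windows of these genes (Igf1r), against 16.3% of all windows. The E-box CACGTG, which reads the same on both strands and is the site of CLOCK and BMAL1 among other factors, was in 3 of the 9 windows, against 7.15% of all windows. These 3 belonged to Irs1, Irs2 and Irs4, and their surroundings are shown because the paralogs share more than the E-box, which is in capitals.

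Irs1, 115 bases before the start, minus strand, chr1:82291549-82291554: cagaggctccgtCACGTGttttgctcctct
Irs2, 44 bases before the start, minus strand, chr8:11008968-11008973: gtaacgcagagtCACGTGttgttttgctct
Irs4, 154 bases before the start, minus strand, chrX:141725366-141725371: tgaggcgacggtCACGTGttgttttgccca

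The run gtCACGTGtt of 10 bases was common to all 3 genes and occurred on either strand in 25 of the 32851 windows. The run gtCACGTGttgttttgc of 17 bases was shared by Irs2 and Irs4 and was found in 2 windows in all. These are matches of letters and no binding was measured.

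Library totals ran from 13.7 to 22.7 M fragments (M, mega). RPKM scales the reads of a gene to its exonic length and to the mapped reads of the library, so RPKM levels of different genes can be set side by side. Differences are given as KO minus WT of log2(RPKM + 0.1), which understates those of low genes, and a gene passed at a Benjamini-Hochberg adjusted p under 0.05 in limma. The rows of the targeted genes sum all exons, and neither was lower in KO (Nr1d1, which is Rev-erbα, at 3.58 to 7.48 RPKM in WT and 2.48 to 9.74 in KO, and Nr1d2, which is Rev-erbβ, at 0.895 to 3.02 and 1.38 to 5.27). With only an exon removed, these rows do not check the labels. Fibroblast markers had the highest summed level (2869 to 3378 RPKM in WT and 3043 to 3981 in KO; 3 of 6 higher and 2 lower in KO). Pluripotency markers summed to at most 5.71 RPKM. Epithelial markers were higher in KO in 4 of 4 genes (sums of 145 to 277 and 257 to 429 RPKM), as were 4 of 5 smooth muscle and 7 of 8 striated muscle markers, with Tnnt2 lower (of all genes, 11.2% were higher and 14.7% lower). The part of these shifts in the results on the 9 genes was not tested. In bulk RNA, fewer cells of a type and less RNA per cell cannot be told apart.

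Grb10 was an abundant transcript in WT cells and a low one in KO cells. In the 12 WT libraries it ran from 46.4 to 59.7 RPKM with a median of 52.5, and in the 12 KO libraries from 1.93 to 2.77 RPKM with a median of 2.30. The groups did not overlap, and every KO library was far under the lowest WT library. Mean levels were 52.9 ± 3.84 RPKM (WT) and 2.29 ± 0.271 RPKM (KO; SD over 12 time points, which takes in change over time as well as noise). KO cells thus held 4.33% of the WT level, a 23.1-fold difference. Between the libraries of the same time point the fold difference was smallest at 20 h (18.6-fold) and largest at 32 h (27.1-fold). These values rest on 3465.5 to 5981.5 fragments per WT library and 150.5 to 271.5 per KO library. On the log2(RPKM + 0.1) scale the difference was −4.48, the largest fall among the 15112 genes expressed in WT or KO. This rank holds for that scale only, since the added 0.1 shrinks falls that end near 0. Gfap, at −4.07, had a larger ratio of WT to KO mean RPKM than Grb10. Ranges of the 12 libraries that did not overlap were seen for 0.609% of these genes, and for 0.41% with KO as the lower group. By mean level Grb10 stood above 96.7% of the expressed genes in WT and above 37.1% in KO. The summed liver and yolk sac markers ran from 78.4 to 1025 RPKM in WT and from 82.7 to 1028 in KO. Summed neuron and glia markers ran from 5.53 to 54.1 RPKM in WT and from 3.01 to 14.2 in KO. All 5 neuron and glia markers had a lower mean in KO, and of these Gfap passed (4.42 and 0.0415 RPKM, limma adjusted p = 6.03e-06). Stmn2, Map2, Tubb3 and Sox2 did not pass (limma adjusted p of 0.0563, 0.0619, 0.0761 and 0.302). The part of these marker genes in the Grb10 result was not tested.

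**Figure D1:**
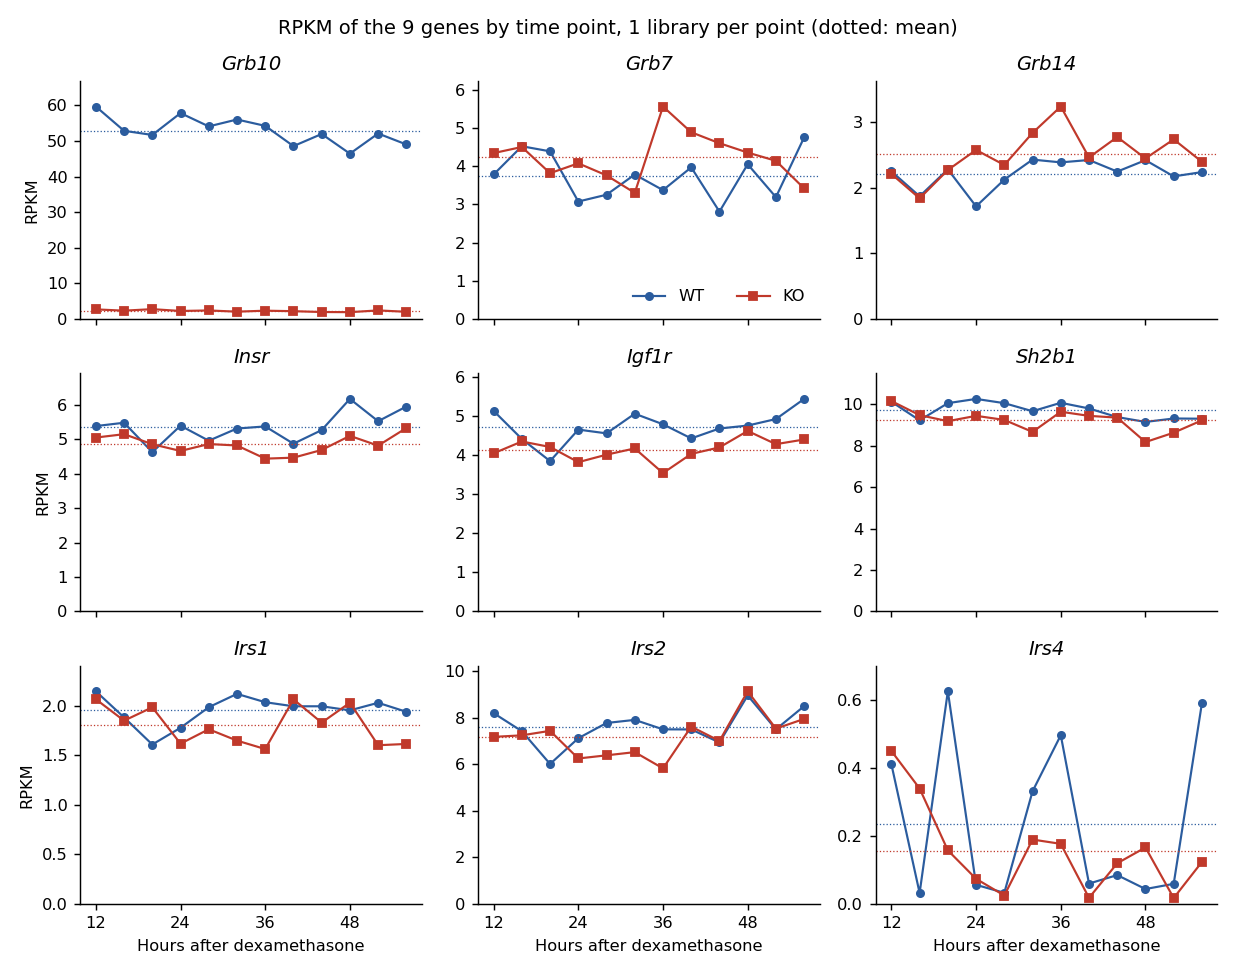
RPKM (vertical axes, from 0, 1 scale per gene) against hours after dexamethasone for the 9 genes, with WT in blue circles, KO in red squares, 1 library per point and dotted lines at the means over 12 time points. Grb10 lies between 46.4 and 59.7 RPKM in WT and under 2.78 RPKM in KO at every time point, while the ranges of WT and KO overlap for the other 8 genes.

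The paralogs of Grb10 stayed low, under 5.6 RPKM in every library of either genotype. Grb7 (chromosome 11, 98446834 to 98455373), an adaptor best known beside ERBB2, ran from 2.81 to 4.76 RPKM in WT with a median of 3.78 and from 3.30 to 5.56 RPKM in KO with a median of 4.24. Most KO values lay within the WT range, 2 of 12 were above it, and KO was higher at 8 of 12 time points. The log2 difference was 0.17 ± 0.087 (SE), with a 95% interval reaching 0.18 to either side (limma, adjusted p = 0.146). Grb14 (chromosome 2, 64912482 to 65022766), which also binds the insulin receptor and restrains it, ran from 1.72 to 2.43 RPKM in WT with a median of 2.25 and from 1.84 to 3.24 RPKM in KO with a median of 2.46. It was above the whole WT range in 7 of 12 KO libraries and higher at 9 of 12 time points. Its log2 difference of 0.17 ± 0.070 (SE) did not pass (limma, adjusted p = 0.0775), although its interval, not corrected for the number of genes, leaves out 0 (0.14 to either side). Its depth was low, at 48 to 116 fragments per library, and the spread of Grb14 in WT (10.1% of the mean) was no larger than counting alone gives (11.6%). In KO its spread was larger, at 14.2% of the mean where counting gives 10.9%.

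Summed over the 3 paralogs, the GRB7 family stood at 58.8 ± 3.55 RPKM with WT and 9.03 ± 0.829 RPKM with KO (SD, n = 12). No test is given, since the sum holds Grb10. Grb7 and Grb14 alone added up to 5.96 ± 0.687 and 6.74 ± 0.814 RPKM in the same order, while Grb10 differed by −50.6 RPKM. Grb10 made up 89.8% ± 1.51 of the family sum in WT cells and 25.5% ± 3.24 in KO cells, where Grb7 had the highest level of the family.

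**Figure D2:**
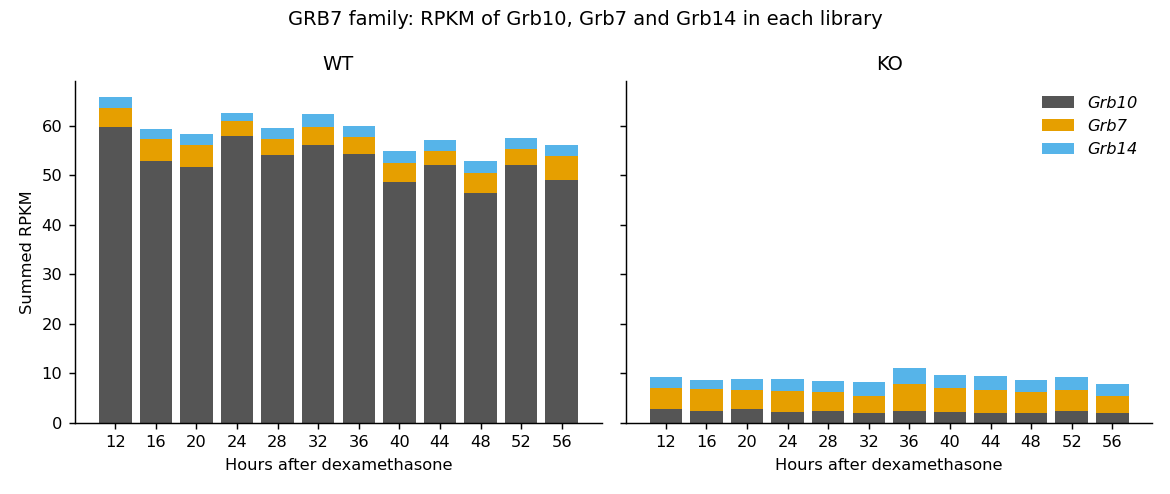
Stacked RPKM of Grb10 (grey), Grb7 (orange) and Grb14 (blue) in each library, by hours after dexamethasone, in WT (left) and KO (right) on 1 shared axis from 0. The WT stacks reach 52.9 to 65.7 RPKM and are mostly Grb10, and the KO stacks reach 7.85 to 11.1 RPKM with Grb7 as the largest part.

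Both receptor genes were slightly lower in KO, and they were the 2 of 8 relatives that passed the test, where 25.9% of all genes tested passed (14.7% of all genes lower in KO). Insr (chromosome 8, 3150922 to 3279617), which encodes the insulin receptor, ran from 4.62 to 6.17 RPKM in WT with a median of 5.38 and from 4.44 to 5.33 RPKM in KO with a median of 4.84. The groups overlapped, and KO was lower at 11 of 12 time points, with 20 h as the exception. Insr fell by 0.14 ± 0.041 on the log2 scale (SE; limma, adjusted p = 0.0143), between means of 5.36 ± 0.427 and 4.85 ± 0.270 RPKM (SD, n = 12). Igf1r (chromosome 7, 67952257 to 68233667), which encodes the IGF1 receptor, ran from 3.85 to 5.45 RPKM in WT with a median of 4.73 and from 3.55 to 4.63 RPKM in KO with a median of 4.19. Again the groups overlapped and WT was higher at 11 of 12 time points, all but 20 h. It fell by 0.18 ± 0.046 on the log2 scale (limma, adjusted p = 0.00488), to 87.6% of the WT mean. Within a library the ratio of Insr to Igf1r RPKM had means of 1.14 ± 0.0756 (WT) and 1.17 ± 0.0542 (KO; SD, n = 12). Neither receptor passed when the test used only the 6 earlier time points (12 to 32 h, adjusted p of 0.344 for Insr and 0.165 for Igf1r) or only the 6 later ones (36 to 56 h, adjusted p of 0.0667 and 0.0573).

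**Figure D3:**
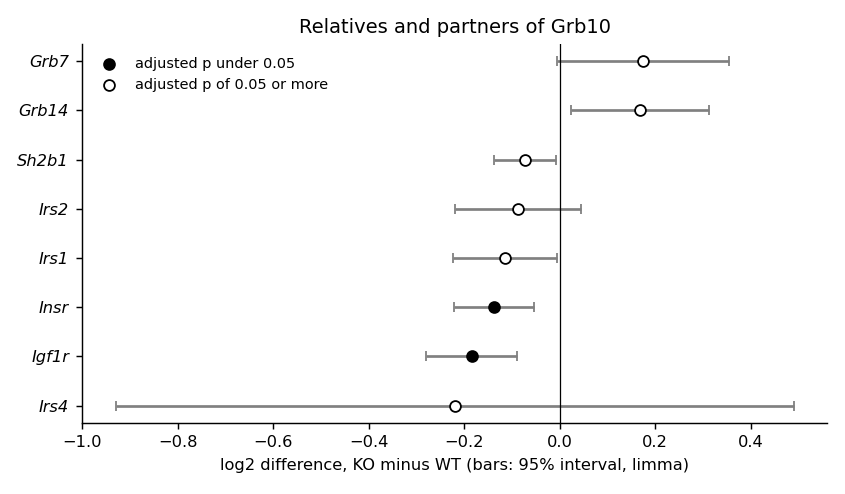
Difference between KO and WT in log2(RPKM + 0.1) for the 8 relatives and partners of Grb10, with bars for the 95% interval from limma over 24 libraries, filled for an adjusted p under 0.05. Igf1r and Insr are filled and lie at −0.18 and −0.14, Grb7 and Grb14 lie at 0.17, and the bar of Irs4 is by far the widest.

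The receptors have long transcripts, and long transcripts as a class were lower in KO. Of the genes tested, the 618 with at least 8000 bases of exons had a median log2 difference of −0.074 and 26.2% of them were called lower in KO, whereas the 4671 genes under 2000 bases had a median of 0.028 and 7.15% were called lower. The exonic length of Insr is 9334 bases and that of Igf1r 11957 bases. Centring each library on exonic length reduced the log2 difference to −0.066 for Insr, which no longer passed (limma, adjusted p = 0.0905), and to −0.10 for Igf1r, which did (adjusted p = 0.0142). The libraries with the lowest long transcripts were WT at 20 h (median deviation of the class −0.13 on the log2 scale) and KO at 36 h (−0.20), and these were also the WT and KO libraries in which Insr, Igf1r and Irs2 were lowest, along with Irs1. Without this pair of libraries Insr differed by −0.15 (adjusted p = 0.00722) and Igf1r by −0.19 (adjusted p = 8.04e-04). How length came to go with genotype was not tested.

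**Figure D4:**
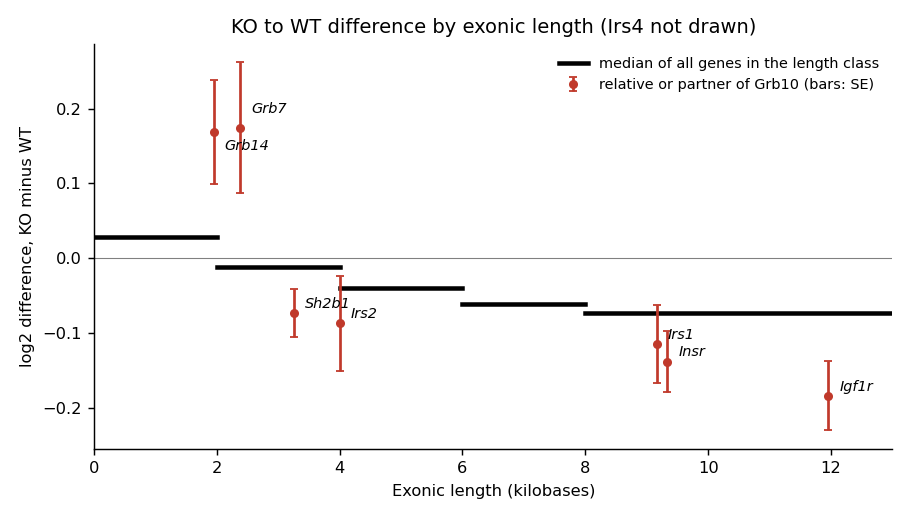
Difference between KO and WT in log2(RPKM + 0.1) against exonic length in kilobases, with black lines for the median of all tested genes in 5 length classes and red points with SE bars for 7 relatives of Grb10 (Irs4 not drawn). The class medians go down from 0.028 to −0.074 with length. Grb7 and Grb14 lie above the median of their class, and Igf1r, Insr, Irs1, Irs2 and Sh2b1 lie under theirs.

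The receptor substrates did not pass. Irs2 (chromosome 8, 10986964 to 11008430), a docking protein whose transcript is itself held down by insulin in liver, ran from 6.02 to 8.97 RPKM in WT with a median of 7.51 and from 5.83 to 9.15 RPKM in KO with a median of 7.22. The KO range took in the whole WT range (log2 difference −0.087 ± 0.064 SE, limma adjusted p = 0.333). Irs1 (chromosome 1, 82233105 to 82291439), the main docking protein of muscle and fat, ran from 1.61 to 2.15 RPKM in WT with a median of 1.99 and from 1.56 to 2.07 RPKM in KO with a median of 1.80. KO was the lower one at 9 of 12 time points (log2 difference −0.11 ± 0.052 SE, limma adjusted p = 0.109), and with exonic length centred the difference was −0.044. Irs2 was the more abundant of the pair in every library, 3.90 ± 0.311 times Irs1 in WT and 4.00 ± 0.458 times in KO. Sh2b1 (chromosome 7, 126466993 to 126475130), an adaptor that binds the activated insulin receptor and promotes its signal, had the smallest spread for its level in WT (SD 4.20% of the mean, and 5.65% in KO, where that of Insr was 5.56%). It ran from 9.15 to 10.3 RPKM in WT with a median of 9.73 and from 8.18 to 10.2 RPKM in KO with a median of 9.30. KO was under WT at 10 of 12 time points, with a log2 difference of −0.073 ± 0.032 (SE; limma, adjusted p = 0.0891).

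Irs4 (chromosome X, 141710998 to 141725217), a docking protein with narrow expression in the adult, stood apart by its swings between libraries. It ran from 0.0318 to 0.627 RPKM in WT with a median of 0.0722 and from 0.0169 to 0.451 RPKM in KO with a median of 0.141. In WT it was above 0.3 RPKM at 12, 20, 32, 36 and 56 h and under 0.1 RPKM at the other 7 time points, and in KO the highest values were at 12 and 16 h. The SD was 101% of the mean in WT and 84.4% in KO, where counting alone gives 19.7% and 25.6%. The WT library of 20 h held 73 fragments (0.627 RPKM, 95% Poisson interval 0.491 to 0.788) and that of 28 h held 3 (0.0324 RPKM, interval 0.00668 to 0.0946, counting error only). The KO and WT means of 0.155 and 0.235 RPKM did not differ beyond this spread (log2 difference −0.22 ± 0.34 SE, limma adjusted p = 0.675), and the interval of 0.71 to either side leaves room for a rise or a fall.

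By level the order in WT was Grb10, Sh2b1, Irs2, Insr, Igf1r, Grb7, Grb14, Irs1 and Irs4. The ranges of neighbours overlapped for Irs2 and Insr, Insr and Igf1r, Igf1r and Grb7, and Grb14 and Irs1, although Irs2 was above Insr, and Insr above Igf1r, in 12 of 12 libraries. In KO the order was Sh2b1, Irs2, Insr, Grb7, Igf1r, Grb14, Grb10, Irs1 and Irs4. Grb7 and Igf1r exchanged rank between libraries (Grb7 higher in 6 of 12), Grb14 was above Grb10 in 8 of 12, and the ranges of Grb10 and Irs1 overlapped too. Grb10 was thus first of the 9 in WT and seventh in KO. The other 8 genes had the same order in both, except for Grb7 and Igf1r.

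None of the 9 genes had a 24 h rhythm that passed in WT (smallest adjusted p = 0.613) or in KO (0.715), where 0.0463% of all genes passed in WT and 0.0728% in KO. At an unadjusted p under 0.05 there was 1 gene in WT (Igf1r, log2 amplitude 0.12, limma F test, p = 0.0292) and 0 in KO, against 7.57% and 7.92% of all genes. No difference in rhythm between the genotypes passed for these 9 genes or for any other (limma; 1 of the 9, Irs1, at an unadjusted p of 0.0442, and 4.82% of all genes under 0.05). The log2 amplitude of Grb10 was 0.067 in WT and 0.028 in KO. Across the time course Grb10 had a slope of −0.14 ± 0.060 per 24 h in WT (SE on the log2 scale, limma adjusted p = 0.249) and of −0.19 ± 0.060 in KO (adjusted p = 0.103). Unadjusted p-values were 0.0274 and 0.00532. None of the 9 slopes passed in limma, where 2.38% of all genes passed in WT and 2.38% in KO, and Grb10 was the 1 gene of the 9 under an unadjusted 0.05 in each genotype (15.2% of all genes in WT and 16.7% in KO). Without the 52 h libraries the KO slope of Grb10 passed (adjusted p = 0.0485). The slopes of Grb10 in KO and WT differed by −0.046 ± 0.085 (adjusted p = 0.935). For the difference in slope, 0 of the 9 genes had an unadjusted p under 0.05, against 6.38% of all genes.

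Beyond the 9 genes, 98 genes of the insulin and IGF pathway were listed by role and 94 were expressed. Of these, 7 were higher in KO (7.45%, against 11.2% of all genes) and 23 were lower (24.5%, against 14.7%), and 64 did not pass, with a median log2 difference of −0.025 against −0.013 for all genes. After centring on exonic length 13 of the 94 were higher and 16 lower, where 2023 of all 15112 genes were higher and 1933 lower. Of the 30 genes, 23 passed in both tests. The higher genes thus made up 23.3% of those that passed as reported and 44.8% after centring (43.2% and 51.1% over all genes).

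Of the ligands and other receptors, Igf1 rose from 2.86 to 3.55 RPKM (log2 difference 0.29 ± 0.078 SE, limma adjusted p = 0.00762, with KO above WT at 10 of 12 time points). Insrr, an orphan relative of the insulin receptor, fell at a level under 0.5 RPKM. Igf2, the fetal growth factor, was at 3289 RPKM in WT and did not pass (adjusted p = 0.833), nor did Igf2r, the receptor that clears it, at 49.0 RPKM (adjusted p = 0.564). Of 14 adaptors and docking proteins 5 were lower and 0 higher (Gab2, Shc1, Sos2, Dok4 and Sh2b3), where 14.7% of all genes were lower and 11.2% higher. With length centred 3 were lower, and Sos2 and Sh2b3 did not pass (adjusted p of 0.0777 and 0.182). Gab2, a docking protein for PI3-kinase and SHP2, fell by 0.21 ± 0.049 on the log2 scale (limma adjusted p = 0.00318). Of 4 proteins that bind GRB10, 2 were lower, where 14.7% of all genes were. Gigyf1, a GYF domain protein named for its binding to GRB10, went from 7.08 to 6.25 RPKM (log2 difference −0.18 ± 0.046 SE, limma adjusted p = 0.00644), and Nedd4, a ubiquitin ligase that GRB10 couples to the IGF1 receptor, went from 128 to 117 RPKM (−0.13 ± 0.026, adjusted p = 5.33e-04), while Gigyf2 and Tec had adjusted p of 0.806 and 0.881. Both falls also passed after centring on length (adjusted p of 0.0335 and 0.00206).

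In the FOXO list 5 of 11 genes were lower and 1 higher (Bcl6), where 14.7% of all genes were lower and 11.2% higher. The median log2 difference of the list was −0.18. With length centred 4 were lower and 1 was higher. Foxo4, a FOXO factor encoded on the X chromosome, went from 62.5 ± 6.70 to 47.7 ± 3.31 RPKM (SD, n = 12; log2 difference −0.38, limma adjusted p = 1.36e-05), with KO under WT at every time point. Foxo3 fell by 0.22 ± 0.055 on the log2 scale (limma adjusted p = 0.00492), and Foxo1 by 0.14 ± 0.050 (adjusted p = 0.0462), though Foxo1 did not pass with length centred (adjusted p = 0.209). Pdk4, a kinase that turns off pyruvate oxidation and a FOXO and glucocorticoid target, fell at every time point (8.85 to 7.18 RPKM, log2 difference −0.30 ± 0.061 SE, limma adjusted p = 9.93e-04). Igfbp1, the insulin-repressed IGF binding protein of liver, had the largest fall of the lists (−1.39 ± 0.45 SE, limma adjusted p = 0.0245) with wide ranges, from 3.75 to 36.0 RPKM in WT and from 0.643 to 14.3 in KO. The liver and yolk sac markers also ranged widely (summed 78.4 to 1025 RPKM in WT and 82.7 to 1028 in KO), and their part in it was not tested.

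In the mTOR list 6 of 17 genes were lower and 0 higher (14.7% and 11.2% of all genes). With length centred 4 were lower and 1 was higher (Deptor, an inhibitor of mTOR, adjusted p = 0.0103). They included Sesn1 and Sesn3, sestrins that restrain mTOR complex 1 and are FOXO targets (log2 differences −0.34 ± 0.039 and −0.28 ± 0.072 SE, limma adjusted p of 2.12e-06 and 0.00545), and Tsc1, a subunit of the complex that inhibits RHEB (−0.22 ± 0.037, adjusted p = 1.45e-04). Mlst8, a subunit of both mTOR complexes, was lower too, as were Rictor and Tsc2, which did not pass with length centred (adjusted p of 0.235 and 0.264). Of 20 genes of the PI3-kinase and AKT branch 2 were lower (Pik3ca and Phlpp2) and 2 higher, and with length centred 0 were lower and 5 higher. The largest rise of the lists was that of Slc2a1, the glucose transporter GLUT1, from 82.8 ± 9.94 to 113 ± 16.8 RPKM (SD, n = 12; log2 difference 0.45, limma adjusted p = 2.76e-04), with KO above WT at every time point. Gys1, glycogen synthase of muscle, rose from 8.23 to 10.1 RPKM (log2 difference 0.29, limma adjusted p = 4.16e-04). Of the RAS and MAP kinase branch, Spry4 and Spry2, feedback inhibitors of receptor tyrosine kinases, fell (−0.30 and −0.21, limma adjusted p of 0.00279 and 3.75e-04), and Map2k1, a MAP kinase kinase, rose (0.16, adjusted p = 0.00481). Of 11 brakes on the receptor and its substrates 1 passed, Trib3, a pseudokinase that binds AKT (0.18 ± 0.051 SE, higher in KO, limma adjusted p = 0.0114). With length centred 3 were higher, with Ptprf, a receptor tyrosine phosphatase, and Enpp1, which binds the insulin receptor, joining it (adjusted p of 7.13e-04 and 0.0183).

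**Figure D5:**
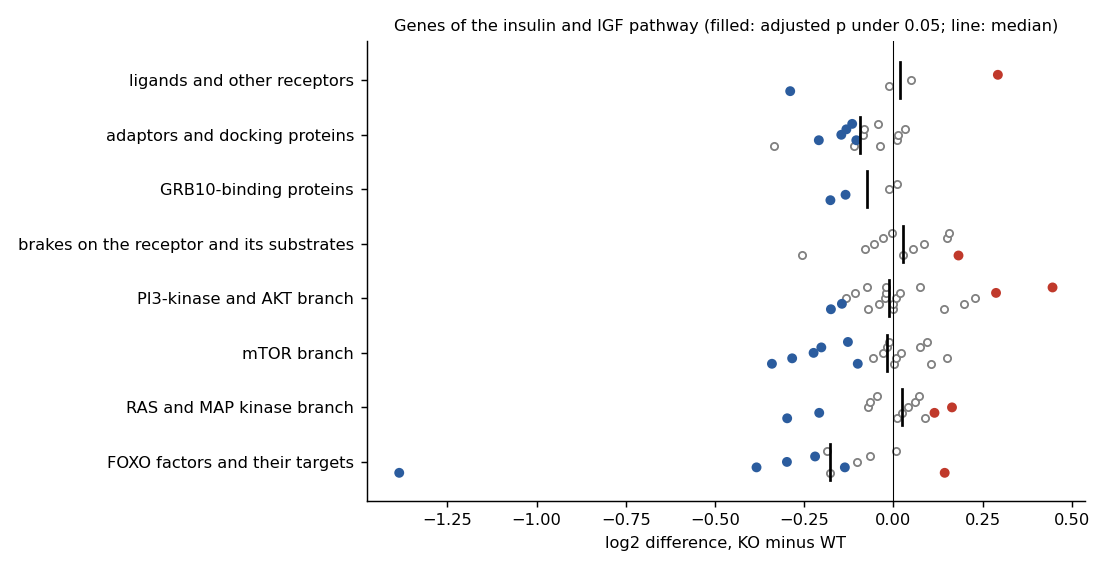
Difference between KO and WT in log2(RPKM + 0.1) for each expressed gene of the 8 pathway lists, 1 point per gene, filled blue (lower) or red (higher) for an adjusted p under 0.05, with a black line at the median of each list. The median of the FOXO list lies at −0.18, with Igfbp1 at −1.39 as its lowest point, and the highest point is Slc2a1 at 0.45.

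Within 1 Mb of Grb10 the table held 11 other genes, of which 4 were expressed. Of these 4, 2 passed, where 25.9% of all genes tested passed. Ddc (dopa decarboxylase), 40.1 kb away, was higher in KO (6.52 ± 0.659 RPKM in WT and 7.95 ± 1.16 in KO, SD, n = 12, limma adjusted p = 0.00699), and Cobl, an actin nucleator 199 kb away on the other side, was lower (2.66 ± 0.309 and 2.11 ± 0.187 RPKM, adjusted p = 3.83e-04). Fignl1 and Ikzf1 had adjusted p of 0.0847 and 0.717. All 4 stayed within a log2 difference of 0.38 either way.

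In a list of 20 other imprinted genes, 4 were lower in KO (20%, against 14.7% of all genes) and 1 was higher (5%, against 11.2%). The largest fall within this list was that of Dlk1, from 112 to 76.9 RPKM (log2 difference −0.53 ± 0.11 SE, limma adjusted p = 0.00106), and the rise was Slc38a4 (0.33 ± 0.098, adjusted p = 0.0154). Gnas and Nespas, of an imprinted locus too, were not in this list, and their lower means in KO are given next. Over the 24 libraries, the rows most like Grb10 by Pearson r of log2(RPKM + 0.1), among 12243 genes with at least 1 RPKM in a genotype, were 3 rows with the symbol Gnas, the antisense transcript Nespas of the same imprinted locus, and Thra. The Gnas row nearest to Grb10 had r = 0.989 and means of 51.2 RPKM in WT and 21.2 in KO, and Nespas had r = 0.984 and went from 1.64 to 0.129 RPKM. Thra had r = 0.951, with means of 27.5 and 18.2 RPKM, and it overlaps the targeted Nr1d1 on the opposite strand. The points share their libraries and their split into WT and KO, so r mostly describes that split. Gnas rows overlap each other and Nespas, and strand use in counting is not stated, so reads of overlapping rows cannot be told apart.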

How the data were processed

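Poly(A) RNA of 24 samples (12 WT and 12 KO time points) was sequenced with 101-bp paired ends. The authors trimmed reads with Trimmomatic 0.36, mapped them to GRCm38/mm10 with STAR 2.5.4b (versions from the submitters' processing notes), removed alignments with mapping quality under 10, counted exonic reads of UCSC known canonical genes with HOMER and deposited them as RPKM with exonic lengths in bases. Strand use is not stated in the sources used here. Multiplying RPKM by exonic length and by the total in the header gave multiples of 0.5 fragments (tolerance 0.01) for 100% of values. These were used for depth only, and intervals cover counting error only. Genes above a mean of 0.5 RPM in either genotype (15112) were compared with limma 3.58.1 (R 4.3.3) on log2(RPKM + 0.1), with genotype alone, two-sided, Benjamini-Hochberg adjustment over all genes and a threshold of 0.05. Rhythms used cosine and sine of 24 h plus a linear trend per genotype. Fits were tested on simulated data. The members and lists were chosen with earlier results of these data known. Since the 12 libraries of a genotype are time points of 1 line, p-values measure only the spread between these libraries. Named genes were the 9 members, up to 12 pathway genes with the largest difference among those passing with at least 1 RPKM, expressed neighbours within 1 Mb, the 5 genes most like Grb10, and the extremes of the imprinted list, and other pathway and marker genes were named after their values were seen. Alternatives covered the pseudocount, filters, normalization, covariates, the time point as a block, the t test of the study and subsets of time points, and 3 more (centring on exonic length by lowess, limma's trend, leaving out 1 WT and 1 KO library) were added after seeing the data. Promoter letters were read from RefSeq windows. Figures were drawn with matplotlib 3.10.9.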

Additional observations from a re-analysis of the deposited data

How the results depend on the processing

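Counting the 8 relatives of Grb10 that passed (2 in the reported test), 0 passed with 12 to 32 h only and 0 with 36 to 56 h only, 1 (Igf1r) with exonic length centred, and 4 (Grb14 and Sh2b1 beside the receptors) with the time point as a replicate block. WT and KO were sampled at the same hours. Same-hour WT and KO libraries deviated together in 8 of 12 pairs (r over 0.1, range −0.21 to 0.39, mean 0.208). Of the WT libraries, 5 of 12 correlated best with the KO library of their own hour. These values do not decide whether the hour should be a block, and the reported test used genotype alone. With the rhythm and trend as covariates Sh2b1 joined the receptors (adjusted p = 0.0475). With the block Grb14 had an adjusted p of 0.0348 and Sh2b1 of 0.0491. With each time point left out in turn the count lay between 2 and 3, Insr and Igf1r always among them, with Grb14, Irs1 and Grb7 joining without 16, 20 and 56 h (adjusted p of 0.0299, 0.0280 and 0.0485). Pathway genes that passed numbered 30 as reported, 9 with 12 to 32 h only, 12 with 36 to 56 h only, and 23 to 33 with time points left out. Genes called higher in KO were 487 and 897, and lower 628 and 1006, in the early and late subsets, with fewer libraries in each test, against 1693 and 2225, and 1327 to 1757 and 1744 to 2226 with time points left out. The difference of Grb10 was −4.04 with a pseudocount of 1 and between −4.53 and −4.43 in the other settings. Rhythm counts stayed at 0 in every setting run, and so did trend counts, except that Grb10 in KO passed without 52 h (1 gene, adjusted p = 0.0485, range 0 to 1). No direction was reversed among the 9 genes in the settings run. Depth limits Irs4 (3 to 73 fragments per WT library and 1.5 to 38.5 per KO library) and Grb14 most. Irs4 gave no value with a minimum of 1 RPKM.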

Other observations

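Irs4 moved between libraries together with genes outside insulin signalling. Over the 24 deviations from the genotype means, the 5 genes most like Irs4 among 12243 (chosen after its swings were seen, by Pearson r on the log2 scale, as a description of libraries that share their pools of embryoid bodies) were Dnmt3b (r = 0.890), a DNA methyltransferase of early embryonic cells, Otx2 (0.873), a factor of the early embryo and forebrain, Gldc (0.866), the glycine decarboxylase, Mcm2 (0.854), a subunit of the replicative helicase, and Trh (0.849), the precursor of thyrotropin-releasing hormone. Their mean levels were low except for Mcm2 at 3.61 RPKM in WT and 4.07 in KO.

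Within the genotypes Grb10 itself had an SD of 7.26% of the mean in WT, where counting gives 1.47%, and 11.8% in KO, where it gives 7.15%. Over the same 24 deviations the genes most like Grb10 were Jazf1 (r = 0.759), Bambi (0.742), Dusp11 (0.733), Klk13 (0.716) and Csk (0.711), none of them a member of the lists used here.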
